A study of Mus musculus with 6 samples.

Results

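The 10 genes described here encode angiogenic and mesenchymal growth factors and 1 receptor: Vegfa, Vegfc, Fgf1, Fgf2, Fgf7, Hgf, Met, Pdgfa, Pdgfb and Igf1. They were taken by gene name from an array annotated with 36028 genes that had a usable probe, of which 24643 were tested, and 19 of 55681 probes belong to them. RNA of N18-Fms cells was hybridized to 6 Agilent arrays of 1 color, 2 for each of 3 groups. The Control group was left unstimulated, and the other groups were stimulated with recombinant murine CSF-1 at 100 ng/mL for 24 h or 48 h. These times are those of the sample labels and of the results of the study, whereas its methods give shorter times. N18 is 1 neomycin-resistant, luciferase-expressing clone of C2H, itself a clonal epithelial line from a prostate tumor of the TRAMP mouse. All 3 groups carry murine c-fms, the CSF-1 receptor gene, introduced with a retrovirus and followed by flow cytometric sorting, and all were grown with fetal bovine serum and dihydrotestosterone. The parental line and its subclones, N18 among them, are described as secreting CSF-1 themselves. The RNA came from 2 independent experiments.

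Growth factors of the VEGF, FGF, HGF, PDGF and IGF families bind receptor tyrosine kinases on neighboring cells or on the cell that made them. VEGF-A drives the sprouting of blood vessels and VEGF-C that of lymphatic vessels. FGF7 and HGF are classical signals from mesenchyme to epithelium, PDGFs recruit fibroblasts and pericytes, and IGF1 promotes growth and survival in many tissues, the prostate included.

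Levels are given as log2 of the background-subtracted signal, from which each array's own 75th percentile was subtracted, so that 0 is the 75th percentile and 1 unit is a 2-fold difference. A level was compared between arrays for the same probe, and no probe's level was set against another's, except to pick the brightest probe of a gene. Between 58.7% and 72.0% of the 59305 spots on each array were well above background, and 0 were saturated. Csf1r was well above background on all 6 arrays, with a mean level of 5.00 in Control, 5.23 at 24 h and 4.93 at 48 h, and it did not pass the test at 24 h (adjusted p = 0.367) or 48 h (adjusted p = 0.793). Among the epithelial markers, Krt8 was well above background on all 6 arrays, Cdh1 on none and Epcam on 1 array. Only Krt8 of that list was called, higher at 48 h. Of 6 fibroblast and smooth muscle markers, 2 rose and 3 fell at 24 h, and 1 rose and 3 fell at 48 h. Of 7 endothelial markers, 3 were well above background on all 6 arrays, and Tie1 and Emcn on none. Cdh5 and Vwf rose at 24 h and Cdh5 at 48 h. Of 6 macrophage and leukocyte markers, 4 were well above background on all 6 arrays, and 1 rose at each time. Their part in the results below was not tested.

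The probes carry the measurement, and that of Fgf2, which rose at both times, is shown because it joins exons. The annotation in the files places it over chr3:37247934-37295153 on the plus strand of mouse build mm9, a span of 47220 bases for a probe of 60 bases, so that intronic sequence lies between its parts. It is printed in lower case throughout, with no part in capitals.
Fgf2 probe A_51_P399845: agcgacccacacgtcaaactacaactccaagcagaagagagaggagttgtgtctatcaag

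At 24 h, 5 of the 10 genes rose and 1 fell. Vegfa, Fgf1, Fgf2, Hgf and Pdgfa were higher than in Control, and Fgf7, the keratinocyte growth factor, was lower. At 48 h, 4 of the 10 rose and 0 fell. These 4 were Vegfa, Fgf1, Fgf2 and Hgf. Vegfc, Met, Pdgfb and Igf1 passed the test at neither time.

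A gene was called at a Benjamini-Hochberg adjusted p under 0.05, from 1 limma fit to all 6 arrays with the adjustment over all 24643 genes tested. Across all genes, 14.0% were called at 24 h, 8.02% higher and 5.99% lower. At 48 h, 14.0% were called as well, 6.58% higher and 7.38% lower. Against that background, 5 of 10 genes were called higher and 1 of 10 lower at 24 h, and 4 of 10 higher and 0 of 10 lower at 48 h. The median log2 difference of the 10 genes was 0.44 at 24 h, beside 0.04 for all genes, and 0.27 at 48 h, beside -0.04. All 10 genes passed the filter on dim probes, which asked for both arrays of at least 1 group to be well above background. Fgf1 and Hgf passed it through stimulated arrays alone, and without them 3 of 8 genes rose and 1 fell at 24 h and 2 of 8 rose at 48 h. The medians given for the 10 genes include both. They were not taken without these genes, so no shift of the list is read from them. Both comparisons use the same Control arrays. Centring the arrays on the median instead lowered every difference by 0.30 on the log2 scale at 24 h and by 0.10 at 48 h. The higher share of all calls at 24 h then went from 57.3% to 23.4%, and with normexp background correction and quantile normalization it was 46.9%.

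**Figure D1:**
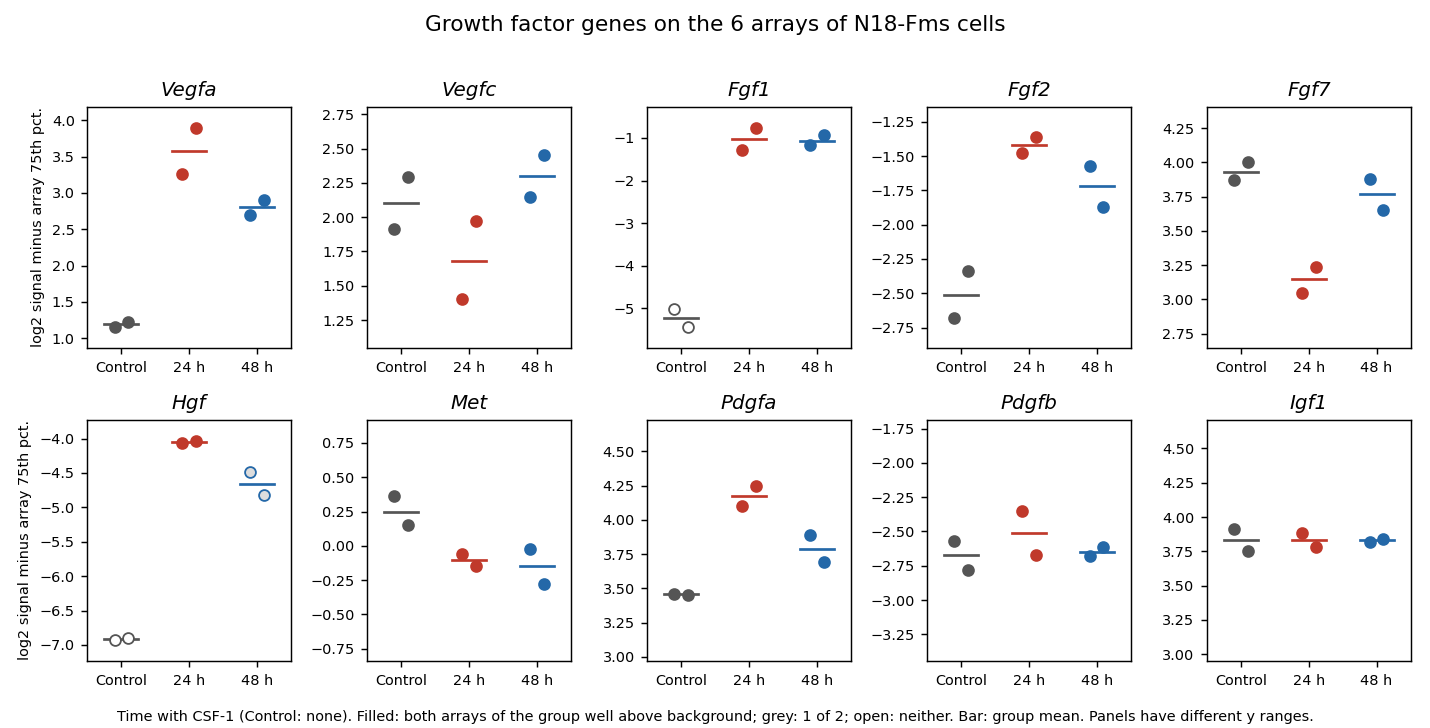
Level of each of the 10 genes on each array, as log2 signal minus the array's 75th percentile (y axis, a different range in each panel), for the 3 groups (x axis, hours with CSF-1), with group means as bars. Filled points are groups with both arrays well above background, grey points groups with 1 of 2, and open points groups with neither. The stimulated arrays of Vegfa, Fgf1, Fgf2 and Hgf all sit above both Control arrays, and those of Igf1 sit among them.

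Among the vascular growth factors, Vegfa rose and Vegfc did not pass. Vegfa was at 1.15 and 1.22 on the Control arrays, at 3.26 and 3.90 at 24 h, and at 2.69 and 2.91 at 48 h. All 4 stimulated arrays lay above both Control arrays, and the 24 h arrays lay above the 48 h arrays. The group means were 1.19 ± 0.05 in Control, 3.58 ± 0.45 at 24 h and 2.80 ± 0.15 at 48 h (SD, n = 2). The increase was 5.25-fold at 24 h (log2 difference 2.39, SE 0.23, adjusted p = 0.00575) and 3.06-fold at 48 h (log2 difference 1.61, SE 0.23, adjusted p = 0.0152). The 48 h call was lost when any 1 Control or 48 h array was left out, with log2 differences from 1.5 to 1.72 and adjusted p from 0.055 to 0.0863. The step from 24 h to 48 h, -0.78 on the log2 scale, did not pass (adjusted p = 0.257).

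Both Vegfa probes rose. The dimmer probe read -0.06 and -0.23 in Control, 1.95 and 2.35 at 24 h, and 1.35 and 1.26 at 48 h. Its log2 difference was 2.29 at 24 h (adjusted p = 0.00378) and 1.45 at 48 h (adjusted p = 0.0107) in a limma fit of every probe on its own. The brighter probe, A_52_P638895, used in the gene test, lies at chr17:46154387-46154446. Both stimulated groups were higher at 2 separate places in the transcript.

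Vegfc read 1.91 and 2.29 in Control, 1.40 and 1.97 at 24 h, and 2.15 and 2.45 at 48 h. The Control arrays overlapped with both stimulated groups. The log2 difference was -0.42 at 24 h (95% interval -1.04 to 0.21, adjusted p = 0.322) and 0.20 at 48 h (-0.42 to 0.83, adjusted p = 0.641). These intervals leave room for differences in either direction.

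Other vascular ligands and related secreted factors moved in different directions. The 10 listed are VEGF, PDGF and angiopoietin ligands together with Angptl2, Angptl4 and Apln, which are not ligands of these families. Among the 9 tested, 1 rose and 4 fell at 24 h, and 2 rose and 3 fell at 48 h. The rise at 24 h was that of Angptl4. Angpt2, an angiopoietin gene, joined it at 48 h (1.06 on the log2 scale, adjusted p = 0.0365). The 24 h value of Angpt2, 0.89, was short of the threshold (adjusted p = 0.054). Angptl4, a secreted inhibitor of lipoprotein lipase, rose by 3.69 on the log2 scale at 24 h (adjusted p = 0.00376) and by 2.90 at 48 h (adjusted p = 0.00629). Figf, which encodes VEGF-D, a ligand of the lymphatic VEGF receptor, fell by 3.13 at 24 h (adjusted p = 0.00101) and by 2.32 at 48 h (adjusted p = 0.00136). Apln, the apelin ligand of vessels, fell by 1.56 (adjusted p = 0.00595) and by 1.22 (adjusted p = 0.0106).

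Of 9 tested receptors of these ligands, 1 rose and 2 fell at 24 h, and 0 rose and 2 fell at 48 h. Nrp1, a co-receptor of VEGF-A, fell by 2.28 at 24 h (adjusted p = 0.00176) and by 2.13 at 48 h (adjusted p = 0.00164). Kdr, the main signaling receptor of VEGF-A, was well above background on all 6 arrays, with log2 differences of -0.03 (adjusted p = 0.937) and -0.19 (adjusted p = 0.59). Flt1, which binds VEGF-A with high affinity, showed differences of -1.08 (adjusted p = 0.0536) and -0.84 (adjusted p = 0.0984). Flt4, the receptor of VEGF-C and VEGF-D, was well above background on 0 of 2 Control arrays and on 1 of 2 arrays at each time, and was not tested. Nrp2, the other neuropilin gene of the list, showed differences of -0.68 (adjusted p = 0.0781) and -0.20 (adjusted p = 0.535). In these cells the VEGF-A gene rose while Nrp1 fell, and neither Nrp2 nor the kinase receptor genes Kdr and Flt1 passed.

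**Figure D2:**
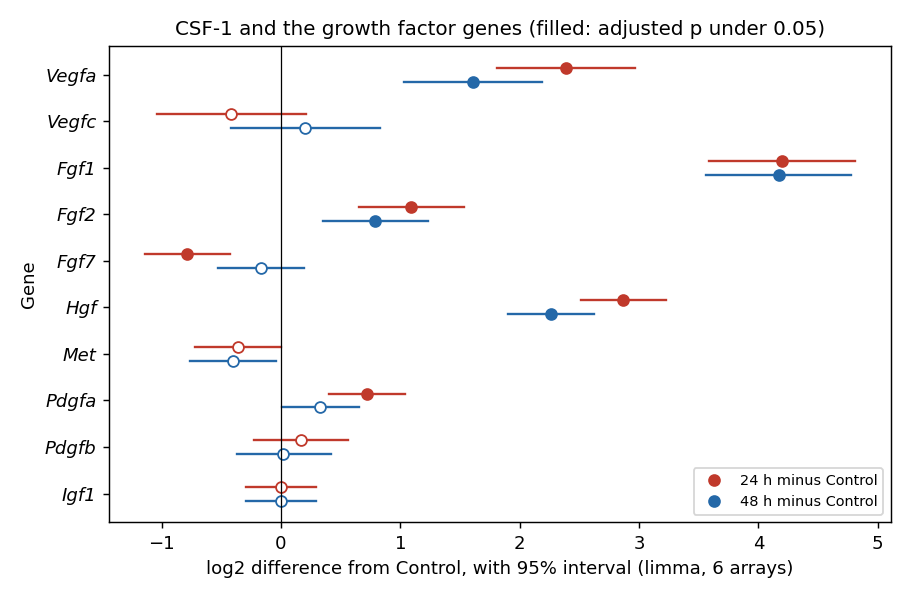
Log2 difference from Control (x axis) of the 10 genes (y axis) at 24 h (red) and 48 h (blue), with 95% intervals from the limma fit, and filled points for an adjusted p under 0.05. Fgf1, Hgf and Vegfa lie farthest from 0 at both times, Fgf7 alone is a filled point below 0, and the values of Fgf1 and Hgf are fitted to Control signals not well above background.

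Among the FGF ligands, Fgf1 and Fgf2 rose and Fgf7 fell at 24 h. Fgf1, acidic FGF, which binds all FGF receptors, read -5.01 and -5.44 in Control on the brightest of its probes, A_55_P2047188. It read -1.29 and -0.76 at 24 h and -1.17 and -0.94 at 48 h. The signals were 17.1 and 14.1 in Control, not well above background on either array, while all 4 stimulated arrays were. The level was therefore at least 13-fold higher at 24 h and at least 12.7-fold higher at 48 h on the values as scaled here. The adjusted p, 0.00179 at 24 h and 0.00145 at 48 h, belong to the fitted differences and do not test these bounds. These bounds set the stimulated mean against the higher, on each Control array, of the probe's own signal and the lowest signal among probes well above background. With normexp background correction, which here adds an offset of 50 to every signal, the log2 difference was 1.96 at both times. After quantile normalization as well it was 1.85 and 1.87, and all these had an adjusted p under 0.05. Such an offset narrows differences between dim signals, and its part was not tested. The mean of both probes gave 2.25 at 24 h (adjusted p = 0.0116) and 2.09 at 48 h (adjusted p = 0.0151). The 2 times lay within their spread of each other, with a log2 difference of -0.03 (adjusted p = 0.969).

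The second Fgf1 probe did not show this increase. A_52_P538673 read -4.37 and -3.28 in Control, -3.71 and -3.34 at 24 h, and -3.03 and -4.60 at 48 h, well above background on all 6 arrays. Its log2 difference was 0.30 at 24 h (adjusted p = 0.785) and 0.01 at 48 h (adjusted p = 0.992), with arrays of the same group more than 1 unit apart in Control and at 48 h. With the gene represented by the probe that was brightest in Control, an alternative chosen after seeing the data, Fgf1 was called at neither time. The increase of Fgf1 rests on 1 of its 2 probes, and why they differ was not tested.

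Fgf2, basic FGF, a mitogen of endothelial cells and fibroblasts, was read by the exon-joining probe shown above. It was at -2.68 and -2.34 in Control, at -1.48 and -1.36 at 24 h, and at -1.57 and -1.87 at 48 h. All 4 stimulated arrays were higher than both Control arrays. The increase was 2.13-fold at 24 h (log2 difference 1.09, SE 0.17, adjusted p = 0.0191) and 1.73-fold at 48 h (log2 difference 0.79, SE 0.17, adjusted p = 0.0427). The probe was printed 10 times on each array, with a coefficient of variation over these spots from 6% to 13.4%. The 24 h call was lost without Control replicate 1 or without either 24 h array (adjusted p from 0.0756 to 0.0884), and the 48 h call without any 1 of the 6 arrays (adjusted p from 0.0765 to 0.152) and in 15 of 23 alternatives in all. A second probe, A_55_P2048705, was not well above background on any array.

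Fgf7 was the gene that fell. It read 3.87 and 4 in Control, 3.05 and 3.24 at 24 h, and 3.88 and 3.65 at 48 h. The 24 h arrays were lower than the other 4, and of the 48 h arrays 1 lay between the Control arrays and 1 below them. The decrease at 24 h was 1.73-fold (log2 difference -0.79, SE 0.14, adjusted p = 0.0257), and the difference at 48 h was -0.17 (95% interval -0.53 to 0.19, adjusted p = 0.482). The direct comparison of 48 h with 24 h gave 0.62 (adjusted p = 0.189). Leaving out any 1 Control or 24 h array took the 24 h call away, with adjusted p from 0.074 to 0.118 and log2 differences from -0.88 to -0.69.

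Of 9 other FGF ligands tested of 19 listed, 0 rose and 1 fell at 24 h, and 0 were called at 48 h. The gene that fell was Fgf10, which is closely related to Fgf7 and shares its main receptor, by 1.01 on the log2 scale at 24 h (adjusted p = 0.0117), against -0.15 at 48 h (adjusted p = 0.507). Fgfr2, whose epithelial splice form is that receptor, fell by 0.52 at 24 h (adjusted p = 0.0401) and by 0.58 at 48 h (adjusted p = 0.031). Fgfr1 showed log2 differences of 0.46 (adjusted p = 0.297) and 0.91 (adjusted p = 0.0764). At 24 h, Fgf7, Fgf10 and their receptor gene were all lower than in Control.

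Among 12 tested FGF receptors and binding proteins, 4 rose and 1 fell at 24 h, and 5 rose and 2 fell at 48 h. Those that rose at both times were Flrt3, Sdc1, Sdc3 and Sdc4, and Fgfbp3, a secreted carrier of FGFs, rose at 48 h. Flrt3, a membrane protein that binds FGF receptors, rose by 3.22 at 24 h (adjusted p = 0.00181) and by 3.08 at 48 h (adjusted p = 0.00164). Sdc3 and Sdc4 encode syndecans, heparan sulfate proteoglycans that hold FGFs at the cell surface. Sdc3 rose by 1.05 (adjusted p = 0.007) and by 1.62 (adjusted p = 0.00211), and Sdc4 by 1.18 (adjusted p = 0.0095) and by 0.73 (adjusted p = 0.0322).

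Hgf, the hepatocyte growth factor, rose from a signal at the bottom of the scale, and its receptor gene Met did not pass. The Hgf signals were 4.50 and 5.13 in Control, 34.3 and 36.4 at 24 h, and 24.6 and 21.3 at 48 h. None of the Control arrays, both 24 h arrays and 1 of the 48 h arrays were well above background. In levels, these were -6.93 and -6.90, then -4.06 and -4.03, then -4.49 and -4.82. The order was the same on both arrays of each group, with 24 h above 48 h above Control. Because the Control values are only a limit, the increase was at least 1.60-fold at 24 h. No bound is given at 48 h, where 1 of the 2 stimulated arrays was itself not well above background. The adjusted p of 0.00145 at 24 h and 0.00176 at 48 h belong to the fitted differences, which take all signals as measured. They do not test the bound. The normexp offset of 50 is larger than each of the Hgf signals given above, and its part in the next values was not tested. With normexp background correction the 24 h log2 difference was 0.58 (adjusted p = 0.0156), or 0.40 after quantile normalization (adjusted p = 0.0315). The 48 h call was lost, at 0.36 (adjusted p = 0.0864) or, after quantile normalization, 0.33 (adjusted p = 0.0559).

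Met read 0.36 and 0.15 in Control, -0.06 and -0.15 at 24 h, and -0.02 and -0.28 at 48 h. The 4 stimulated arrays were lower than both Control arrays, by a small margin. The log2 difference was -0.36 at 24 h (95% interval -0.72 to 0.00, adjusted p = 0.162) and -0.40 at 48 h (-0.76 to -0.04, adjusted p = 0.13). Under median centring the 24 h difference was -0.66 and passed (adjusted p = 0.0305). The Met probe was also printed 10 times, with a coefficient of variation over its spots from 3.24% to 5.63%.

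Of 9 tested genes of the HGF axis, 1 rose and 0 fell at each time. It was Plau, urokinase, a protease that can activate the HGF precursor and plasminogen. Plau rose by 2.89 on the log2 scale at 24 h (adjusted p = 0.00794) and by 1.91 at 48 h (adjusted p = 0.0223). Hpn and Tmprss2, proteases of the prostate epithelium, and Mst1r, the receptor related to Met, were not well above background on any array.

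Of the PDGF chains, Pdgfa rose at 24 h and Pdgfb passed at neither time on its brighter probe. Pdgfa read 3.46 and 3.45 in Control, 4.10 and 4.25 at 24 h, and 3.89 and 3.69 at 48 h. All 4 stimulated arrays were higher than Control, with the 24 h arrays highest. The increase was 1.64-fold at 24 h (log2 difference 0.72, SE 0.13, adjusted p = 0.025), and the 48 h difference was 0.33 (95% interval 0.01 to 0.65, adjusted p = 0.149). A second probe that overlaps the first gave 0.62 at 24 h (adjusted p = 0.0427) and 0.29 at 48 h (adjusted p = 0.218). The 24 h call was lost when any 1 Control or 24 h array was left out (adjusted p from 0.0795 to 0.109) and under median centring (0.41, adjusted p = 0.135).

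The 2 probes of Pdgfb differed. The brighter, A_55_P2047310, read -2.57 and -2.78 in Control, -2.35 and -2.67 at 24 h, and -2.68 and -2.61 at 48 h, with the groups overlapping. Its log2 difference was 0.17 at 24 h (adjusted p = 0.533) and 0.02 at 48 h (adjusted p = 0.939), and both turned negative under median centring. The dimmer, A_55_P1974441, read -4.13 and -3.76 in Control, -3.30 on both 24 h arrays, and -3.09 and -2.95 at 48 h. Its log2 difference was 0.64 at 24 h (adjusted p = 0.059) and 0.93 at 48 h, where it passed the fit of every probe on its own (adjusted p = 0.0268). The dimmer probe lies at chr15:79827438-79827497 and the brighter at chr15:79826376-79826435, both on the minus strand.

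The PDGF receptors moved apart. Pdgfrb, the receptor of PDGF-B, fell by 1.91 at 24 h (adjusted p = 0.00841) and by 1.12 at 48 h (adjusted p = 0.0312). Pdgfra, which also binds PDGF-A, rose by 1.33 at 24 h (adjusted p = 0.0176), against 0.62 at 48 h (adjusted p = 0.11). Pdgfc, a further ligand of Pdgfra, fell by 1.27 (adjusted p = 0.00662) and by 1.38 (adjusted p = 0.00493). Pdgfra also belongs to the fibroblast markers, of which Col1a1, Col1a2 and Acta2 fell and Dcn rose at both times. The summed level of the 6 fibroblast and smooth muscle markers was 337 and 341 in Control, 141 and 147 at 24 h, and 121 and 163 at 48 h, in multiples of the 75th percentile signal. Bright probes weigh most in such a sum, here those of Col1a1 and Col1a2, and Myh11 was not well above background on any array. The part of this change in the PDGF results was not tested.

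**Figure D3:**
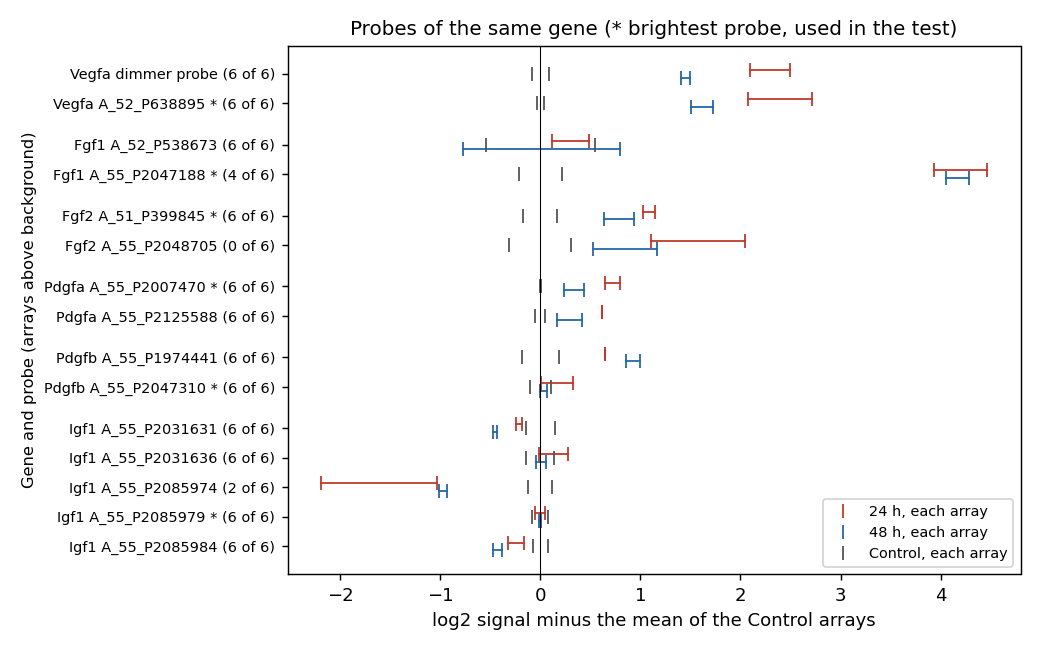
Every probe of the genes with more than 1 probe (y axis, with the number of arrays well above background), as log2 signal minus the mean of the Control arrays (x axis), with a tick for each array and a line between the arrays of a stimulated group. The probes of Vegfa and of Pdgfa move together, whereas those of Fgf1 and of Pdgfb differ. The brightest Igf1 probe stays near 0, and most of the other Igf1 probes lie below it.

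Igf1 passed at neither time. It read 3.91 and 3.75 in Control, 3.88 and 3.78 at 24 h, and 3.82 and 3.84 at 48 h. All 3 group means were 3.83, and the stimulated arrays lay between the Control arrays. On this probe, the brightest, the 95% interval of the log2 difference ran from -0.29 to 0.29 at both times. A change of its signal beyond 0.29 in either direction lay outside that interval, which does not cover the other probes. The mean of all Igf1 probes gave -0.39 at 24 h (limma, adjusted p = 0.116) and -0.37 at 48 h (adjusted p = 0.142). The 5 Igf1 probes differed in part. A second probe gave 0.14 and 0.01, and a pair that overlaps in sequence gave -0.22 and -0.25 at 24 h and -0.45 and -0.44 at 48 h, where neither passed (adjusted p = 0.0995 and 0.0883). The most distal probe, A_55_P2085974 at chr10:87399581-87399640, was well above background in Control alone. Its fitted log2 difference was -1.61 at 24 h (adjusted p = 0.0514) and -0.97 at 48 h (adjusted p = 0.162), and did not pass. The stimulated values of this probe are only limits.

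Around Igf1, the adaptor genes Irs1 and Irs2 and the binding protein gene Igfbp6 fell at both times. Of 13 tested IGF ligands, receptors, binding proteins and substrates, 1 rose and 5 fell at 24 h, and 1 rose and 4 fell at 48 h. The adaptors carry the signal from the IGF1 and insulin receptors. Irs1 fell by 1.75 at 24 h (adjusted p = 0.00244) and by 1.01 at 48 h (adjusted p = 0.00783), and Irs2 by 1.51 (adjusted p = 0.0107) and by 1.29 (adjusted p = 0.0168). Igfbp6, which binds IGFs and restrains them, fell by 1.32 at both times (adjusted p = 0.00364 and 0.00324). Igf1r fell by 0.83 at 24 h (adjusted p = 0.0226), against -0.38 at 48 h (adjusted p = 0.143), and Insr rose by 0.60 at 24 h (adjusted p = 0.024).

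Among 14 tested angiogenesis inhibitors and hypoxia regulators, 2 rose and 3 fell at each time. Timp3, a metalloproteinase inhibitor that also blocks VEGF-A binding to its receptor, fell by 3.69 at 24 h (adjusted p = 0.00794) and fell by 2.83 at 48 h (adjusted p = 0.0156). Col18a1, whose collagen chain is the source of endostatin, rose by 1.34 (adjusted p = 0.00884) and by 2.03 (adjusted p = 0.00291). Sparc, a matrix protein that binds VEGF-A and PDGF, fell by 1.01 (adjusted p = 0.0164) and by 0.89 (adjusted p = 0.0231). Hif1a, the hypoxia-inducible subunit that activates Vegfa in low oxygen, rose by 1 on the log2 scale at 24 h (adjusted p = 0.0192) and by 0.88 at 48 h (adjusted p = 0.0269). Epas1, its relative HIF-2 alpha, showed log2 differences of 0.07 (adjusted p = 0.744) and 0.01 (adjusted p = 0.976).

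Over all 7 lists of related genes, 75 of the 98 genes with a usable probe could be tested. At 24 h, 10 rose and 16 fell, and at 48 h, 11 rose and 14 fell. Their median log2 difference was 0.07 at 24 h and -0.09 at 48 h, beside 0.04 and -0.04 for all genes.

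**Figure D4:**
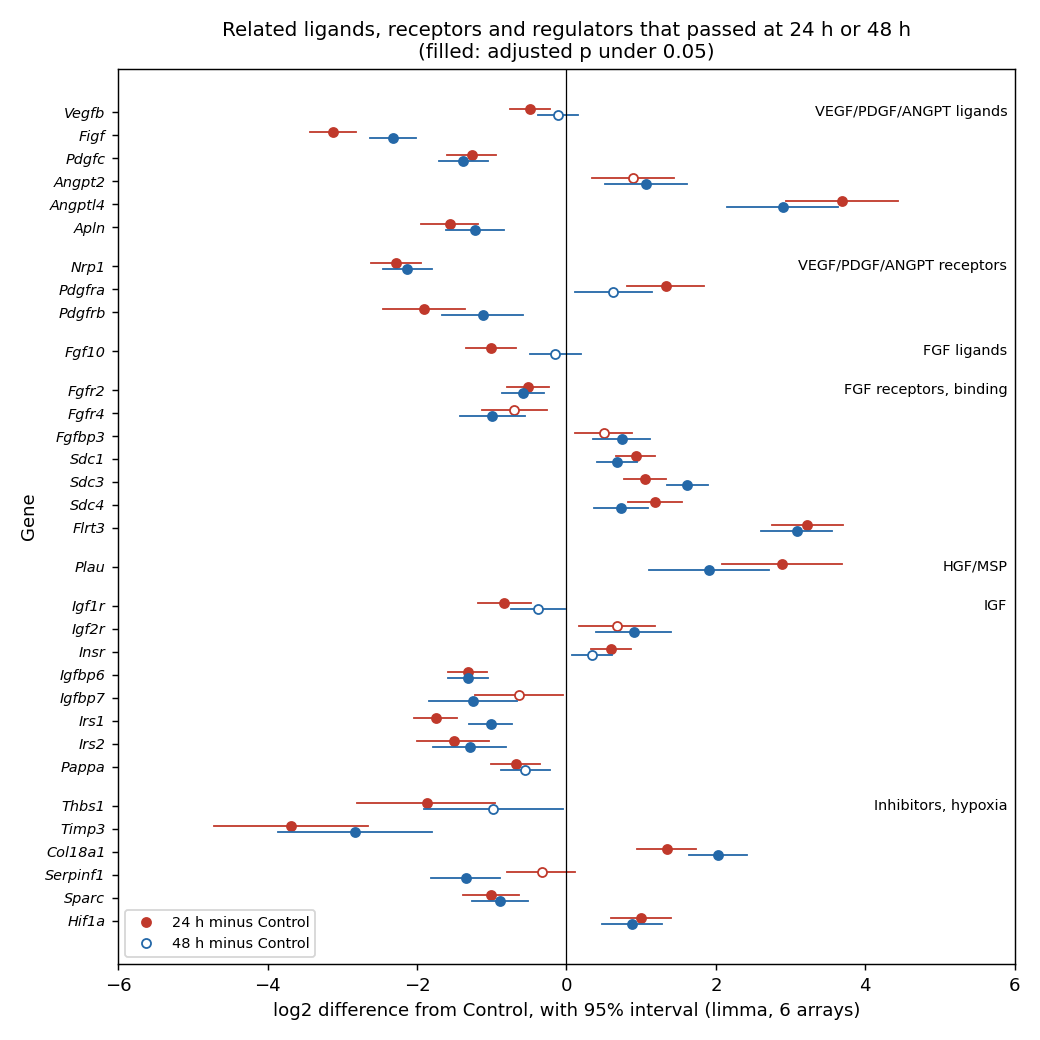
Log2 difference from Control (x axis, with 95% intervals from limma) of the related ligands, receptors and regulators that passed at 24 h or 48 h (y axis, grouped by list), at 24 h (red) and 48 h (blue), with filled points for an adjusted p under 0.05. Angptl4, Flrt3 and Plau lie farthest to the right, and Figf, Timp3 and Nrp1 farthest to the left.

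Comparing 48 h with 24 h directly, 0 of the 10 genes and 0% of all genes were called by limma at an adjusted p under 0.05. At an unadjusted p under 0.05, 4 of the 10 genes and 3355 of 24643 passed, and a 2-fold threshold on top of that left 0 of the 10. The 10 genes had a median log2 difference of -0.09 between the times, beside -0.08 for all genes. Vegfa, Hgf and Pdgfa were lower at 48 h than at 24 h on both arrays, with log2 differences of -0.78, -0.61 and -0.38. Fgf7 was higher by 0.62, and each of these 4 was short of the threshold after adjustment.

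The genes whose profile over the 6 arrays lay closest to that of Vegfa were found by the root mean square difference of log2 levels, each centred on its Control mean. These were the transcript ENSMUST00000134929 at 0.17, D730003K21Rik at 0.17 and Junb, a subunit of AP-1, at 0.18. For Fgf1 and Hgf no such genes are given, since their Control values are only limits.

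The windows around the transcription starts of 8 of the 10 genes, with 11 starts, were read from the RefSeq promoter table for GRCm38.p6, from 250 bases before to 50 bases after the start. Fgf1 and Pdgfb were not matched there. Windows are shown for Vegfa and Fgf2, which rose at both times, and for Met, which did not pass, and each motif found is in capitals. They lie at chr17:46032328-46032627 on the minus strand, chr3:37348403-37348702 on the plus strand and chr6:17463707-17464006 on the plus strand.
Vegfa promoter window: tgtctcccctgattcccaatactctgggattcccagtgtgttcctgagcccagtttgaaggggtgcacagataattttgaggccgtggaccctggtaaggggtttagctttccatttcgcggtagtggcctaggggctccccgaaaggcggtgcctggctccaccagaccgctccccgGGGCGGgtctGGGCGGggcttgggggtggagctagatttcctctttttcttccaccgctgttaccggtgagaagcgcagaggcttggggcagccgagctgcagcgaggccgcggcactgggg
Fgf2 promoter window: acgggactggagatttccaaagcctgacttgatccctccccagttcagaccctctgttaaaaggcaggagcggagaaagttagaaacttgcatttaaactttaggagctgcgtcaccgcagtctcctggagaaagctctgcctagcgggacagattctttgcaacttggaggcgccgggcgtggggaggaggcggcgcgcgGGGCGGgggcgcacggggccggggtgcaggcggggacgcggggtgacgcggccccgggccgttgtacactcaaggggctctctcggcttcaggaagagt
Met promoter window: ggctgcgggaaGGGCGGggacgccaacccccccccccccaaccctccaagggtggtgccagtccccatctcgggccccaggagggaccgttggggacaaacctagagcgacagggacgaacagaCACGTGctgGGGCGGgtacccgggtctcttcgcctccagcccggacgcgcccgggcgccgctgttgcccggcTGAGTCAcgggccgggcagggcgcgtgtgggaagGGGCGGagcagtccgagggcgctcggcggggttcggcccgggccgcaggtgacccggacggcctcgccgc

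The capitals in the Vegfa and Fgf2 windows are GC boxes, GGGCGG, which 35.7% of all 32851 windows hold on either strand. Of the 11 windows of the 8 genes, 7 hold a GC box, and these belong to 5 genes. In the Met window the capitals are also the hypoxia element ACGTG, read on both strands of 1 palindrome, and an AP-1 motif, TGANTCA. The hypoxia element occurs in 19.6% of all windows and AP-1 in 7.81%. Among the 8 genes, ACGTG was found for Met and in a second Vegfa window, at chr17:46025114-46025413, whose start lies within the gene. It was not found in the Vegfa window shown, and sequence outside the windows was not searched. AP-1 was found for Met and Igf1. The gamma-activated site TTCNNNGAA, held by 8.30% of windows, and the cyclic AMP element TGACGTCA, held by 1.79%, were found for 0 of the 8 genes. Of the genes whose windows hold ACGTG or AP-1, Vegfa rose, and Met and Igf1 did not pass.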

How the data were processed

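Per the labels, the 6 arrays of N18-Fms cells fall into Control, 24 h and 48 h, with 2 arrays each. That the RNA came from 2 independent experiments is stated in the methods of the study, not in the labels. The authors deposited, for each array, the output of Agilent Feature Extraction 11.0.1, with spot intensity after background subtraction, the mean and background intensity and flags, not normalized between arrays. A deposited table of log2 values, used as an alternative, followed the same differences between arrays (99.78% within 0.05 over 44323 probes).

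Outlier spots were left out, spots of a probe averaged, and log2 intensity taken minus the 75th percentile of each array, which spanned 550.3 to 610.9. The brightest probe stood for each gene, 303 probes had no usable spot on some array, and a gene was tested where both arrays of at least 1 group were well above background (24643 of 36028). limma 3.58.1 in R 4.3.3 fitted the 3 groups with 3 residual and 2.39 prior degrees of freedom (files read with version 1.17.8 of data.table), 2-sided, with Benjamini-Hochberg adjustment. An exact permutation test of 2 against 2 arrays cannot go below p = 0.333. The procedure was tested on simulated data. Some marker values and probe sequences are not reported here. The number of arrays limits the precision.

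The 10 genes, the lists of related genes and the cell type markers were chosen with earlier results of these data known. Named from each list were the 3 genes most changed among those called at both times or, where fewer, at 1 time, and for Vegfa the 3 nearest profiles. Receptors of the 10 genes, markers and other related genes were named after their values were seen. Python 3.11.15, with Biopython 1.88 and matplotlib 3.10.9, read sequences and drew the plots. Alternatives in normalization, background correction, filter, probe choice, prior, test, replicate block, slide and left-out arrays are given in the closing section.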

Additional observations from a re-analysis of the deposited data

Results flagged for a closer look

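Vegfc lay below the Control mean on both 24 h arrays and above it on both 48 h arrays. The log2 difference between 48 h and 24 h was 0.62, and the limma test of that difference did not pass (adjusted p = 0.368, 95% interval 0.00 to 1.25). The groups hold 2 arrays each, so single arrays could not be examined as outliers.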

How the results depend on the processing

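Of 684 values of single genes over 23 alternatives, 611 kept their side of the threshold with no change of sign counted. A further 55 lost the call, 2 gained it and 16, all uncalled, changed sign. Igf1 was at 0 in the main comparisons after rounding, so its values could not count as sign changes. The sign changes were those of Pdgfb under median centring (-0.14 at 24 h, -0.08 at 48 h and 0.06 for 48 h against 24 h), quantile normalization (-0.04 at 48 h), normexp with quantile normalization (-0.01 at 48 h), the mean of a gene's probes (0.07 for 48 h against 24 h), the slide as a block (0.02) and leaving out single arrays (-0.08 to 0.13 at 48 h, -0.30 to 0.02 for 48 h against 24 h). For 48 h against 24 h, Fgf1 changed to 0.17 under median centring, 0.02 under normexp with quantile normalization, and ran from -0.30 to 0.24 without single arrays. Met changed to 0.16 under median centring and ran from -0.17 to 0.08 without single arrays. The cause was not tested.

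With 6 of the 10 genes called at 24 h and 4 at 48 h, the counts became 3 and 2 without the filter on dim probes, where related genes fell from 26 to 17 and from 25 to 10 and all genes from 3453 to 1321 and from 3439 to 869 (36028 genes tested). With all 6 arrays required above background, 2 of 8 were called at 48 h, since Fgf1 and Hgf dropped out, and 5 of all genes differed between the times. The methods' t-test after adjustment called 0 at both times for the 10 genes, the related genes and all genes. At an unadjusted p under 0.05 and 2-fold it called 1352 of all genes at 24 h, 1160 at 48 h and 251 between the times, with 15 related genes at 48 h and 2 between the times. limma at those thresholds called 1893, 1597 and 560 of all genes, and 2 related genes between the times. The intensity trend called 5477 of all genes at 48 h, and 195 of all and 4 related genes between the times. Normexp called 215 of all and 3 related genes between the times, or 288 and 3 after quantile normalization, and median centring called 7 of all genes there. Fitting the 4 arrays of each comparison alone called 2115 of all genes at 48 h.

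The 24 h replicate 1 array was alone on its slide, so the slide as a block equals leaving it out: 3 of the 10 genes, 17 related genes and 1076 of all genes at 24 h, and 2115 of all genes at 48 h. Leaving out each array in turn gave 3 to 6 of the 10 genes, 13 to 21 related genes and 898 to 2538 of all genes at 24 h. At 48 h it gave 2 to 3, 9 to 20 and 890 to 2115, and between the times 0 to 11 of all genes. A lone array was assumed to vary like the other groups.

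The replicate numbers were not shown to pair the arrays, with correlations of same-numbered deviations of 0.128, 0.094 and 0.199. With the replicate block, 6 of the 10 genes were called at 24 h and 3 at 48 h, where Fgf2 did not pass (0.79, adjusted p = 0.0603), and all genes called numbered 3801 and 3967.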
